A study of Mus musculus with 36 samples.

Results

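Notch signalling was followed through 10 genes in mouse tibia. They are the receptors *Notch1*, *Notch2*, *Notch3* and *Notch4*, the ligands *Jag1*, *Dll1* and *Dll4*, and the target genes *Hes1*, *Hey1* and *Heyl*. The genes were chosen by symbol and not by a rule on their values, though earlier results of these data were known. Each symbol was found once among the 56246 genes measured, and all 10 passed the filter on low values that left 16123 genes for testing.

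Notch receptors are proteins of the cell surface that are activated by ligands on a neighbouring cell. Binding of a ligand leads to cleavage of the receptor by an ADAM protease and then by gamma-secretase, and the freed intracellular part enters the nucleus, where it joins the DNA-binding protein RBPJ and turns on repressor genes of the HES and HEY families. In bone the pathway acts in cells of the osteoblast and osteoclast lineages and in blood vessels, where *Notch4* and *Dll4* are best known from endothelial cells and *Notch3* from the smooth muscle cells and pericytes that surround them.

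Bulk RNA was sequenced from tibiae of 36 mice at 6 months of age, after the epiphyses and marrow had been taken away so that mainly cortical bone remained. A group of 12 wild-type mice received no injection. The other groups were *LMNA* G/G mice, a C57BL/6J strain that carries 2 copies of a human *LMNA* transgene on a bacterial artificial chromosome with the progeria mutation G608G, beside its own intact *Lmna*. Of these, 12 had been given saline and 12 the adenine base editor (ABE), both by retro-orbital injection at P14 (14 days after birth). The editor is an enzyme that rewrites the mutant base and was delivered here by a pair of AAV9 vectors. Each group held 6 males and 6 females. No untreated *LMNA* G/G mice and no injected wild-type mice were analysed here, so that genotype and injection cannot be told apart in the comparisons with wild-type. The artificial chromosome also holds a further human gene, *RAB25*. The wild-type mice are also numbered apart from the others, and a batch tied to this numbering cannot be told apart from genotype either.

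Levels are given as scaled TPM, which are the deposited TPM (a measure of transcripts that corrects reads for gene length and library total) brought to a common middle by 1 factor per library, taken from the ratios of its genes to their means over all libraries. Libraries held between 48064068 and 116206662 reads on genes, and each of the 10 genes had between 252 and 45099 reads in every library. The ABE-treated female F109436 stood apart, with a scaling factor of 0.219 where the next lowest was 0.61. Without it, 5, 9 and 4 of the 10 genes were called in the 3 comparisons given below, against 5, 9 and 6 with it, and the calls of *Dll1* and *Notch3* against saline-treated mice were the ones lost. Markers of the labelled tissue were present in all libraries, but summed osteocyte markers (5 genes) had a median of 21.5 scaled TPM in wild-type, 358 in the saline group and 256 in the ABE group, and summed markers of chondrocytes and the joint surface (5 genes) had medians of 110, 15.9 and 21.7. In bulk RNA fewer cells of a type and less RNA per cell cannot be told apart.

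The 10 genes lie on chromosomes 2, 3, 4, 16 and 17. On GRCm38 (GENCODE vM21), the receptors are *Notch1* (ENSMUSG00000026923.15, chr2:26457903-26516663, minus strand), *Notch2* (ENSMUSG00000027878.11, chr3:98013527-98150361, plus), *Notch3* (ENSMUSG00000038146.8, chr17:32120820-32166852, minus) and *Notch4* (ENSMUSG00000015468.14, chr17:34564268-34588503, plus). The ligands are *Jag1* (ENSMUSG00000027276.7, chr2:137081456-137116644, minus), *Dll1* (ENSMUSG00000014773.13, chr17:15367354-15376872, minus) and *Dll4* (ENSMUSG00000027314.6, chr2:119325784-119335962, plus). The target genes are *Hes1* (ENSMUSG00000022528.8, chr16:30064384-30067796, plus), *Hey1* (ENSMUSG00000040289.8, chr3:8663359-8667256, minus) and *Heyl* (ENSMUSG00000032744.4, chr4:123233556-123249875, plus). Of the genes that overlap them, *Gm42819* on the strand of *Notch2* had the most reads, with a median of 1075 per library against 25595.5 for *Notch2*. Whether the counting used the strand is not given in the sources used here, so reads in overlaps are uncertain. *Notch3* shares 21024 bp with the antisense gene *Gm17276*, which had a median of 19 reads against 11374.5. The *Dll1* locus overlaps the opposite-strand gene A930024N18Rik by 1873 bp.

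RefSeq promoters on GRCm38.p6 were at hand for 7 of the 10 genes, those of *Hes1*, *Hey1* and *Heyl* being the exceptions. Because HES and HEY proteins are repressors that bind the class C box, and RBPJ is the factor that carries the receptor's signal, the 250 bases before each start were searched on both strands for CACGCG (class C box), for CACGTG (E-box) and for TGGGAA (RBPJ core). The class C box was found in 4 of 7 genes, the 3 ligands and *Notch2*, and in 7.62% of all 32851 promoter windows. The 7 genes had 8 windows, so the count of genes and the share of windows are not the same measure. The E-box and the RBPJ core were found in 0 of 7 genes, and in 6.02% and 21.6% of all windows. The stretches that hold the matches lie on chr2:119325559-119325624 (plus strand) for *Dll4*, chr2:137116656-137116721 and chr2:137116734-137116770 (minus strand) for *Jag1*, chr17:15376965-15377030 (minus strand) for *Dll1* and chr3:98013466-98013531 (plus strand) for *Notch2*. The boxes themselves begin 195, 171, 249, 68 and 42 bases before the start. The stretches around them are shown because they are what the promoters of these 4 genes share, with the box or its reverse complement in capitals and the gene's own strand read 5′ to 3′.
Dll4: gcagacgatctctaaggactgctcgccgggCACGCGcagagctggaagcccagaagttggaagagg
Jag1: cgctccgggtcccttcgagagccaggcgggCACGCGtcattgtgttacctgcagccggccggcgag
Jag1, farther from the start: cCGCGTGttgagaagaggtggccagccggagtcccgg
Dll1: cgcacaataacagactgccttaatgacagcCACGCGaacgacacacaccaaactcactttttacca
Notch2: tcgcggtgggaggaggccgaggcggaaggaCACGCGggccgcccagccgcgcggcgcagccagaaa
These matches describe the letters only, and binding was not measured. The motifs were chosen after the promoters had been read, so the shares are a description and no test. GC content of the windows was not taken into account. The *Dll1* promoter has a second RefSeq window, which held no class C box. Against wild-type, the 3 ligands with the box rose in ABE-treated mice and *Notch2* fell, as described for each gene below. Of the searched genes without the box, *Notch3* and *Notch4* rose and *Notch1* fell in the same comparison. A link between the box and these changes was not tested.

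The receptors *Notch2*, *Notch3* and *Notch1* had the highest medians of the 10 genes in every group. In wild-type tibia the medians, in scaled TPM, descended from *Notch2* (9.41) through *Notch3* (5.0), *Notch1* (3.42), *Jag1* (1.68), *Hes1* (1.27), *Notch4* (1.23), *Heyl* (1.01), *Dll4* (0.969) and *Hey1* (0.489) to *Dll1* (0.437). Of the 9 neighbouring pairs in this order, the ranges of *Notch2* and *Notch3* and those of *Notch1* and *Jag1* did not overlap, and the ranges of the other pairs did. In ABE-treated mice *Notch2* (median 7.97) and *Notch3* (6.36) drew near each other, with *Notch2* still the higher in 10 of 12 libraries. *Hes1* moved from the fifth place in wild-type to the fourth in saline-treated mice, where it overlapped *Jag1*.

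**Figure D1:**
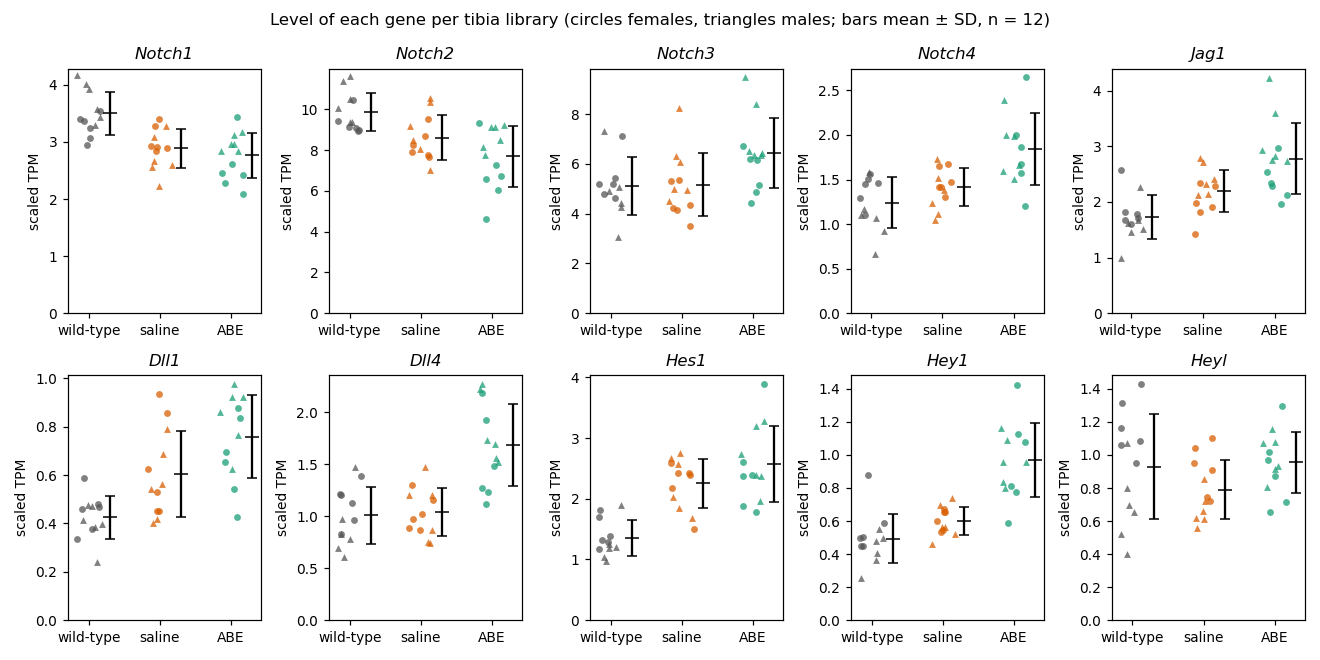
Scaled TPM (vertical axis, from 0) of each of the 10 genes in 36 tibia libraries, by group on the horizontal axis, with circles for females, triangles for males and bars for the mean ± SD of 12 mice. *Notch1* and *Notch2* step down from wild-type to both *LMNA* G/G groups, *Hes1* steps up in both, and *Dll4* and *Hey1* step up in ABE-treated mice, where 11 of 12 *Hey1* values lie above the highest saline-treated value.

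In saline-treated *LMNA* G/G tibia *Hes1*, *Jag1* and *Dll1* were higher than in wild-type, and *Notch1* and *Notch2* were lower. The 5 genes called of 10 compare with 52.4% of all genes tested, the 3 called higher with 27.5% and the 2 called lower with 24.9%, so the count of calls is near that of the table as a whole. The median log2 fold change of the 10 genes was 0.09, against 0.015 over all genes. In ABE-treated mice 9 of 10 genes differed from wild-type, where 70.1% of all genes did. Of these, 7 were higher (all genes 34.6%) and 2, *Notch1* and *Notch2*, were lower (all genes 35.5%), and *Heyl* was not called. The median of the 10 genes in that comparison was 0.43, against -0.024 over all genes. In ABE-treated against saline-treated mice, 6 of 10 genes were called and all were higher, namely *Notch3*, *Notch4*, *Jag1*, *Dll1*, *Dll4* and *Hey1*. Of all genes 48.0% were called, 22.9% higher and 25.1% lower, and the medians were 0.23 for the 10 genes and -0.018 for all. The comparisons share their wild-type, saline-treated or ABE-treated libraries and are not independent. The ranges of the groups lay apart for 0 of the 10 genes in each of them, against 6.66%, 8.64% and 0.0310% of all genes in the order given.

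**Figure D2:**
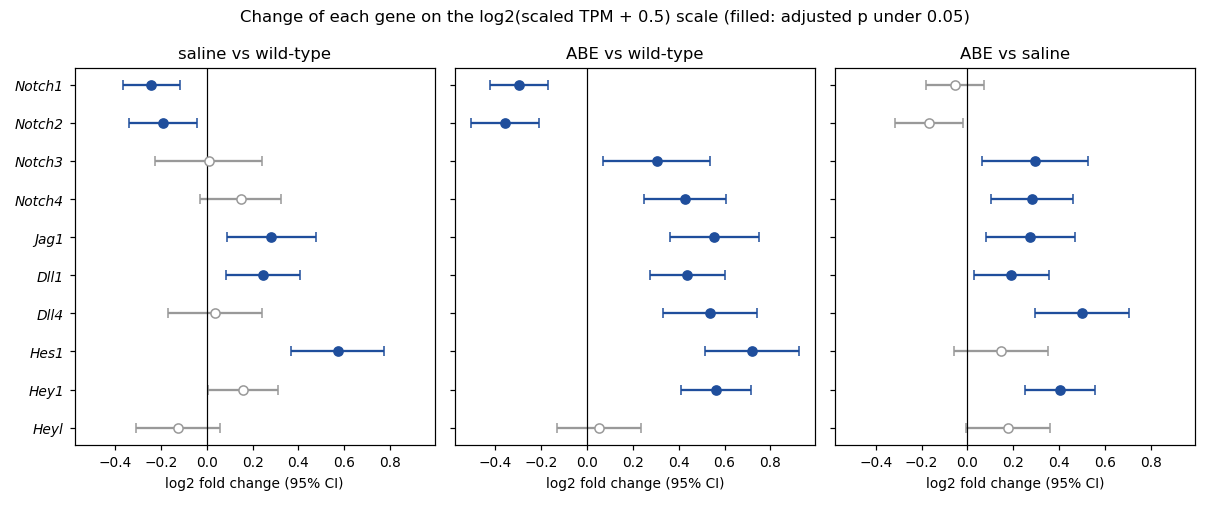
Log2 fold change on the log2(scaled TPM + 0.5) scale (horizontal axis) with its 95% interval for each gene (vertical axis) in 3 comparisons of 12 and 12 libraries, with filled points for an adjusted p under 0.05. The 6 filled points of ABE against saline all lie to the right of 0, from 0.19 for *Dll1* to 0.50 for *Dll4*, although on TPM as deposited *Notch3* and *Jag1* lie just left of 0, at -0.045 and -0.016.

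These counts rest on the scaling. On TPM as deposited the median of all genes tested moved to -0.13 in the saline group and -0.42 in the ABE group against wild-type and to -0.27 between the *LMNA* G/G groups, and 2, 3 and 2 of the 10 genes were called. Of these, 1 was higher and 1 lower, 1 was higher and 2 lower, and 0 were higher and 2 lower, where scaled TPM gave 3 higher and 2 lower, 7 higher and 2 lower, and 6 higher and 0 lower. The split of all calls on that scale was 1038 higher and 3704 lower, 1470 higher and 9458 lower, and 531 higher and 6574 lower, against 4438 and 4009, 5571 and 5727, and 3689 and 4049 on scaled TPM. Changes below are on scaled TPM, and so are relative to the middle of all genes.

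Among the receptors, *Notch1* was lower in both *LMNA* G/G groups. This receptor is widely used in blood vessels, blood cells and the osteoblast lineage. It ranged from 2.95 to 4.18 scaled TPM in wild-type (median 3.42), from 2.23 to 3.40 in saline-treated (median 2.90) and from 2.10 to 3.44 in ABE-treated mice (median 2.85). None of the 12 saline-treated and 1 of the 12 ABE-treated libraries were above the wild-type median, and the ranges overlapped. The log2 fold change against wild-type was -0.24 (SE 0.062, adjusted p = 0.0015) in the saline group and -0.30 (SE 0.062, adjusted p = 7.9e-05) in the ABE group. The difference between the *LMNA* G/G groups was -0.055, with a 95% interval from -0.18 to 0.071 (adjusted p = 0.48).

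*Notch2*, whose activating mutations cause a human disorder with bone loss, took the same course. Its range was 8.95 to 11.6 scaled TPM in wild-type (median 9.41), 7.01 to 10.5 in saline-treated (median 8.36) and 4.64 to 9.32 in ABE-treated mice (median 7.97). The lowest value belonged to the library F109436, and all 12 ABE-treated libraries were below the wild-type median. Against wild-type the log2 fold change was -0.19 (SE 0.073, adjusted p = 0.029) in saline-treated mice, a call that was lost when 603F, M309451 or M409446 was left out (adjusted p = 0.053, 0.066 and 0.054). It was -0.36 (SE 0.073, adjusted p = 6.4e-05) in ABE-treated mice, and -0.31 without F109436. Between ABE-treated and saline-treated mice it was -0.17 and was not called (adjusted p = 0.058).

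*Notch3*, the receptor of vascular smooth muscle and pericytes, was unlike them. In wild-type it ranged from 3.07 to 7.32 scaled TPM (median 5.0), in saline-treated mice from 3.49 to 8.25 (median 4.96) and in ABE-treated mice from 4.44 to 9.51 (median 6.36). Saline-treated mice thus covered the wild-type range almost wholly, and 10 of 12 ABE-treated libraries were above either median. The log2 fold change was 0.0080 in saline-treated mice against wild-type (95% interval -0.22 to 0.24, adjusted p = 0.96). It was 0.30 in ABE-treated mice against wild-type (SE 0.11, adjusted p = 0.018), where TPM as deposited gave -0.22. Against saline-treated mice it was also 0.30 (adjusted p = 0.032), where TPM as deposited gave -0.045 and the call was lost on leaving out any of 7 libraries (F109420, F109436, F309418, F409439, M109464, M209511 or M509459), with an adjusted p of at most 0.068.

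*Notch4*, a receptor largely of endothelial cells, was the least abundant of the 4. It ranged from 0.664 to 1.58 scaled TPM in wild-type (median 1.23), from 1.04 to 1.73 in saline-treated (median 1.42) and from 1.20 to 2.65 in ABE-treated mice (median 1.77), the highest value being that of F109436. Of the ABE-treated libraries 9 lay above every wild-type library and 6 above every saline-treated one. The log2 fold change was 0.15 in saline-treated mice against wild-type and was not called (adjusted p = 0.16). It was 0.43 in ABE-treated mice against wild-type (SE 0.088, adjusted p = 6.4e-05) and 0.28 against saline-treated mice (SE 0.088, adjusted p = 0.0097). On TPM as deposited these were 0.016 and 0.0040, and neither was called.

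Each of the ligands was highest in ABE-treated mice. *Jag1*, a ligand of osteoblasts and of vessel walls, ranged from 1.0 to 2.58 scaled TPM in wild-type (median 1.68), from 1.43 to 2.79 in saline-treated (median 2.21) and from 1.97 to 4.23 in ABE-treated mice (median 2.74). Of the saline-treated libraries 11 of 12, and of the ABE-treated 12 of 12, exceeded the wild-type median. The log2 fold change against wild-type was 0.28 (SE 0.096, adjusted p = 0.014) in the saline group and 0.55 (SE 0.096, adjusted p = 5.9e-06) in the ABE group. Between the *LMNA* G/G groups it was 0.27 (SE 0.096, adjusted p = 0.019), against -0.016 on TPM as deposited.

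*Dll1*, a Delta-like ligand, had the lowest median of the 10 genes in all groups. It ranged from 0.240 to 0.588 scaled TPM in wild-type (median 0.437), from 0.400 to 0.933 in saline-treated (median 0.553) and from 0.428 to 0.975 in ABE-treated mice (median 0.800). Of the ABE-treated libraries 10 were above every wild-type library, and 5 of the saline-treated ones were. The ratio of the means was 1.42 in the saline group and 1.79 in the ABE group against wild-type. On the log2(scaled TPM + 0.5) scale, which understates changes at such low levels, the difference was 0.25 (SE 0.080, adjusted p = 0.010) and 0.44 (SE 0.080, adjusted p = 1.3e-05). Between the *LMNA* G/G groups it was 0.19 (adjusted p = 0.046), a call that was lost on leaving out any of 16 of the 36 libraries, F109436 among them (adjusted p = 0.072).

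*Dll4*, the Delta-like ligand of endothelial cells, was higher in ABE-treated mice than in both other groups. Its range was 0.609 to 1.47 scaled TPM in wild-type (median 0.969), 0.740 to 1.48 in saline-treated (median 0.994) and 1.12 to 2.27 in ABE-treated mice (median 1.63). Wild-type and saline-treated mice covered nearly the same range, and 9 of 12 ABE-treated libraries lay above all of them. The ratio of the means was 1.03 in saline-treated against wild-type mice, with a log2 fold change of 0.035 (95% interval -0.17 to 0.24, adjusted p = 0.79). It was 1.67 in ABE-treated against wild-type mice (log2 fold change 0.54, SE 0.10, adjusted p = 2.1e-05) and 1.63 against saline-treated mice (log2 fold change 0.50, SE 0.10, adjusted p = 7.2e-04). On TPM as deposited neither rise of *Dll4* was called.

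Of the target genes, *Hes1* had the largest change in saline-treated mice. It codes for a transcriptional repressor that many signals besides Notch can induce. The range was 0.975 to 1.90 scaled TPM in wild-type (median 1.27), 1.5 to 2.76 in saline-treated (median 2.40) and 1.79 to 3.89 in ABE-treated mice (median 2.40), with the highest value in F109436, without which the log2 fold change against wild-type was 0.67 in ABE-treated mice. All 12 saline-treated and all 12 ABE-treated libraries were above the wild-type median, and 9 saline-treated and 10 ABE-treated libraries were above the wild-type range. The ratio of the means to wild-type was 1.66 in saline-treated mice (log2 fold change 0.57, SE 0.10, adjusted p = 1.8e-05) and 1.90 in ABE-treated mice (log2 fold change 0.72, SE 0.10, adjusted p = 2.2e-07). Between the *LMNA* G/G groups the difference was 0.15, with a 95% interval from -0.056 to 0.35 (adjusted p = 0.23). The rise in saline-treated mice was called under all 17 alternative settings in which the gene was tested.

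*Hey1*, a related repressor of vascular and skeletal cells, rose in ABE-treated mice. Its range was 0.255 to 0.878 scaled TPM in wild-type (median 0.489), 0.459 to 0.741 in saline-treated (median 0.581) and 0.587 to 1.42 in ABE-treated mice (median 0.958), highest in F109436. The wild-type range was widened by the female 611F, its highest library, and by the male 617M, its lowest. The ratio of the means to wild-type was 1.22 in saline-treated mice, where the log2 fold change of 0.16 was not called (adjusted p = 0.076) but was once 611F (adjusted p = 0.016) or the ABE-treated F1WT609535 (adjusted p = 0.0499) was left out. That change was also called under 5 of the 16 alternative settings in which the gene was tested, with values from 0.037 to 0.33. As for *Dll1*, the scale understates changes at such low levels. In ABE-treated mice the ratio was 1.96 (log2 fold change 0.56, SE 0.075, adjusted p = 1.1e-07). It was 1.61 between ABE-treated and saline-treated mice (log2 fold change 0.40, SE 0.075, adjusted p = 4.1e-04). On TPM as deposited the log2 fold change against saline-treated mice was 0.19 and was not called.

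*Heyl*, the third repressor, was called in no comparison. It ranged from 0.403 to 1.43 scaled TPM in wild-type (median 1.01), from 0.555 to 1.10 in saline-treated (median 0.732) and from 0.655 to 1.3 in ABE-treated mice (median 0.952), and the wild-type range took in all values of both other groups. The log2 fold change was -0.12 in saline-treated (95% interval -0.31 to 0.057, adjusted p = 0.24) and 0.052 in ABE-treated mice (95% interval -0.13 to 0.23, adjusted p = 0.62) against wild-type. Between the *LMNA* G/G groups it was 0.18 (adjusted p = 0.10), and it was called once F609472 was left out (adjusted p = 0.038).

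The wide wild-type range of *Heyl* divided by sex. Its mean was 1.17 ± 0.177 scaled TPM (SD, n = 6) in wild-type females and 0.692 ± 0.233 (SD, n = 6) in wild-type males, whereas ABE-treated females and males had 0.921 ± 0.233 and 0.993 ± 0.131. In ABE-treated mice against wild-type the log2 fold change was -0.24 in females and 0.34 in males, and the difference of 0.58 between the sexes passed the limma interaction test over all genes (SE 0.15, adjusted p = 0.031). The other 9 genes did not pass that test in any comparison. Of the 10 genes, 3, 4 and 2 had an unadjusted p under 0.05 in the interaction for saline-treated against wild-type, ABE-treated against wild-type and ABE-treated against saline-treated mice. Of all genes tested 23.0%, 20.1% and 15.8% did. *Jag1* came next to *Heyl* in ABE-treated mice against wild-type, with a log2 fold change of 0.29 in females and 0.82 in males (difference 0.54, adjusted p = 0.063).

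A single wild-type male, 617M, was the lowest wild-type library for 8 of the 10 genes, all but *Notch1* and *Notch2*. Its summed endothelial markers (20.5 scaled TPM) and mural markers (16.6) were also the lowest of any library. The calls in ABE-treated mice against wild-type did not change in number when this or any other library was left out, at 9 of 10 genes each time.

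Markers of vessel cells and of skeletal muscle differed between the groups. The sum of 10 endothelial genes, among them *Pecam1* and *Cdh5*, ranged from 20.5 to 37.4 scaled TPM in wild-type (median 28.2), from 25.9 to 39.3 in saline-treated (median 31.3) and from 29.1 to 45.1 in ABE-treated mice (median 34.8). Of these 10 genes 3, 6 and 6 were called higher and 0 lower in saline-treated against wild-type, ABE-treated against wild-type and ABE-treated against saline-treated mice. The sum of 9 mural genes, such as *Rgs5* and *Acta2* of pericytes and smooth muscle, had medians of 30.8 (range 16.6 to 55.5), 32.5 (24.6 to 60.9) and 53.3 (34.0 to 70.7), with 2, 7 and 5 of the 8 tested called higher and 0 lower. The endothelial medians of all groups thus lay within the wild-type range, though 6 of 10 genes were called higher in ABE-treated mice in either comparison. Of all genes, 34.6% were called higher in ABE-treated mice against wild-type and 22.9% against saline-treated mice. Mural markers rose mainly in ABE-treated mice.

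The sum of 10 skeletal muscle genes, such as *Acta1* and *Ckm*, which belong to tissue outside the bone, had medians of 1060 (range 216 to 3193) in wild-type, 2266 (352 to 8359) in the saline group and 6706 scaled TPM (1143 to 13661) in the ABE group. Of these genes 8, 10 and 9 were called higher and 0 lower. The highest muscle and mural sums, 13661 and 70.7, were both those of F109436. No gene of these lists was at 0 in any library.

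Markers of marrow cells also differed between the groups. The sum of 5 erythroid genes had a median of 209 scaled TPM in wild-type (range 102 to 301), 236 in the saline group (85.7 to 301) and 109 in the ABE group (21.0 to 223), and of the 4 tested 0, 0 and 0 were called higher and 0, 3 and 4 lower. For 6 neutrophil genes the medians were 1360 (690 to 2268), 2367 (947 to 3387) and 1469 (322 to 3683), with 2, 0 and 0 called higher and 0, 1 and 5 lower. For 5 B cell genes they were 31.8 (20.8 to 52.5), 14.2 (10.5 to 30.04) and 17.5 (7.88 to 35.7), with 0 called higher in each comparison and 4, 5 and 1 lower. Erythroid markers (4 of 4 tested) and neutrophil markers (5 of 6) thus fell between the *LMNA* G/G groups where 6 of the 10 genes rose, and the part of marrow cells in the changes of these genes was not tested.

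**Figure D3:**
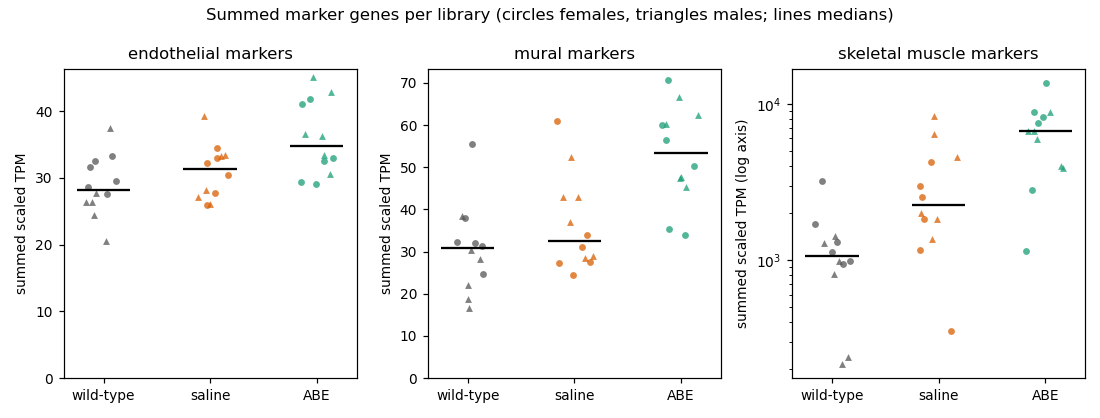
Summed scaled TPM of the endothelial (10 genes), mural (9 genes) and skeletal muscle (10 genes) lists in each library (vertical axes, the last on a log scale) by group, with circles for females, triangles for males and lines for medians. Muscle medians climb from 1060 to 2266 to 6706, and mural medians stand at 30.8, 32.5 and 53.3.

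When these sums were entered in the fit as covariates, the counts of calls changed. With the endothelial sum, 6, 8 and 2 of the 10 genes were called in saline-treated against wild-type, ABE-treated against wild-type and ABE-treated against saline-treated mice. With the mural sum the counts were 4, 4 and 1, and with the muscle sum 1, 2 and 2. Of all 16123 genes, 8483, 9406 and 3652 were called with the endothelial sum, 8305, 7535 and 514 with the mural sum and 7217, 5759 and 1952 with the muscle sum, against 8447, 11298 and 7738 with none. Against saline-treated mice the calls of *Notch3*, *Notch4*, *Jag1* and *Dll1* were lost with each of the 3 sums. With the endothelial, mural and muscle sums in that order, *Notch4* was at 0.090, 0.11 and 0.19 (adjusted p = 0.14, 0.41 and 0.15) and *Jag1* at 0.072, 0.017 and 0.13 (adjusted p = 0.34, 0.89 and 0.33). *Dll1* was at 0.064, -0.0050 and 0.057 (adjusted p = 0.49, 0.97 and 0.62) and *Notch3* at 0.054, 0.015 and 0.15 (adjusted p = 0.56, 0.93 and 0.38). *Hes1* kept its call in saline-treated mice with each of the 3 sums (log2 fold changes from 0.39 to 0.48), and *Hey1* kept its calls in ABE-treated mice against wild-type (0.33 to 0.37) and against saline-treated mice (0.25 to 0.29) with each of them. *Dll4* against saline-treated mice remained called with the endothelial sum (0.27) and the muscle sum (0.36), and was 0.23 with the mural sum (adjusted p = 0.059). *Notch1* and *Notch2*, by contrast, were close to 0 in ABE-treated against wild-type mice with the muscle sum, at -0.076 (adjusted p = 0.40) and -0.10 (adjusted p = 0.34). *Notch3* was at -0.059, -0.11 and 0.0058 with the endothelial, mural and muscle sums in that comparison, and was called with none of them.

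**Figure D4:**
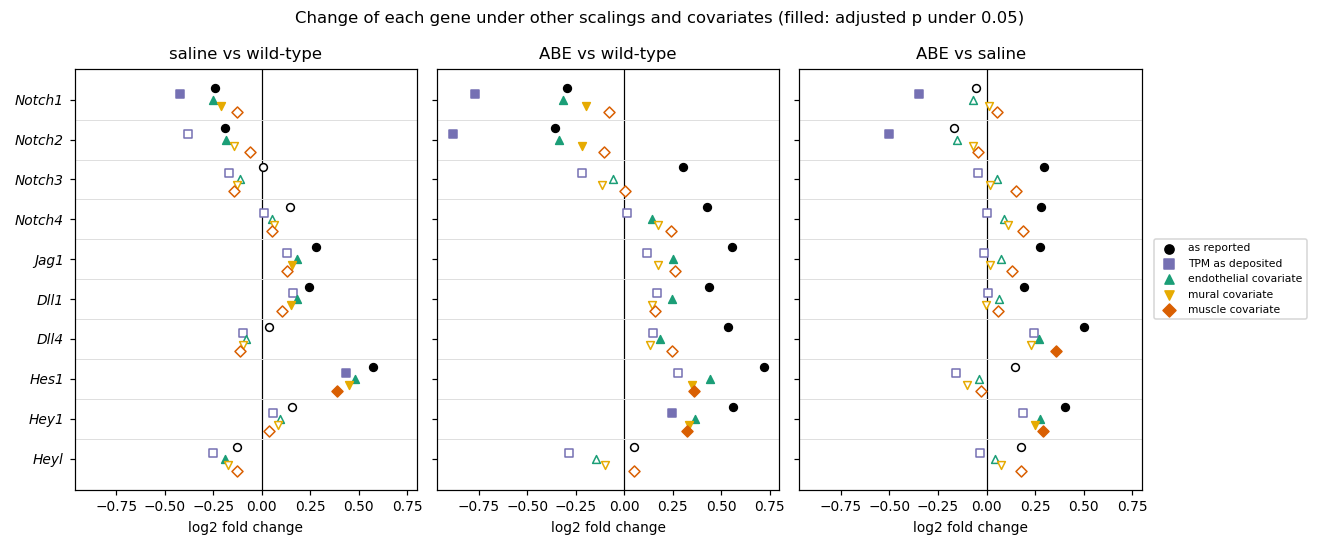
Log2 fold change (horizontal axis) of each gene (vertical axis) in the 3 comparisons on scaled TPM as reported, on TPM as deposited and with the endothelial, mural or muscle sum as a covariate, with filled symbols for an adjusted p under 0.05. *Hes1* stays filled in saline against wild-type and *Hey1* in ABE against wild-type under all 5 settings, whereas *Notch3* falls on both sides of 0.

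From mouse to mouse the genes formed 2 sets. After removal of the means of each group and sex, Pearson correlations over the 36 libraries had a median of 0.57 over the 45 pairs of genes and ran from -0.55 (*Notch2* and *Dll1*) to 0.85 (*Notch4* and *Dll4*). *Notch1* and *Notch2* followed each other (0.73). Neither followed the ligands. With *Jag1*, *Dll4* and *Dll1* the values were 0.01, 0.01 and -0.35 for *Notch1*, and -0.10, -0.29 and -0.55 for *Notch2*. *Notch3*, *Notch4*, *Jag1* and *Dll4* were tied among themselves at 0.69 to 0.85. *Heyl* lay between the sets, at 0.57 with *Notch1* and 0.63 with *Notch3*. These values are a description, since all genes of a library share its scaling and its tissue. The library F109436 had the lowest *Notch2* and the highest *Notch4*, *Hes1* and *Hey1* values of the 36. Its erythroid (21.0) and neutrophil (322) sums were the lowest. Correlations here and with the cell markers were not computed without it, and how far they rest on it was not tested.

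The same sets appeared against the cell markers. *Dll4*, *Notch4*, *Jag1* and *Notch3* followed the endothelial sum, at 0.93, 0.88, 0.86 and 0.85. With the mural sum the same genes were at 0.82, 0.57, 0.78 and 0.69. Of the marker sums, *Dll1* followed the mural one most closely (0.82). *Hes1* ran against the erythroid sum (-0.76) as well as with the mural sum (0.75), and *Dll4* (-0.71), *Hey1* (-0.69) and *Notch4* (-0.66) also ran against the erythroid sum. *Notch2* followed the neutrophil sum (0.72) and ran against the muscle sum (-0.70), and *Notch1* also ran against the muscle sum (-0.62).

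**Figure D5:**
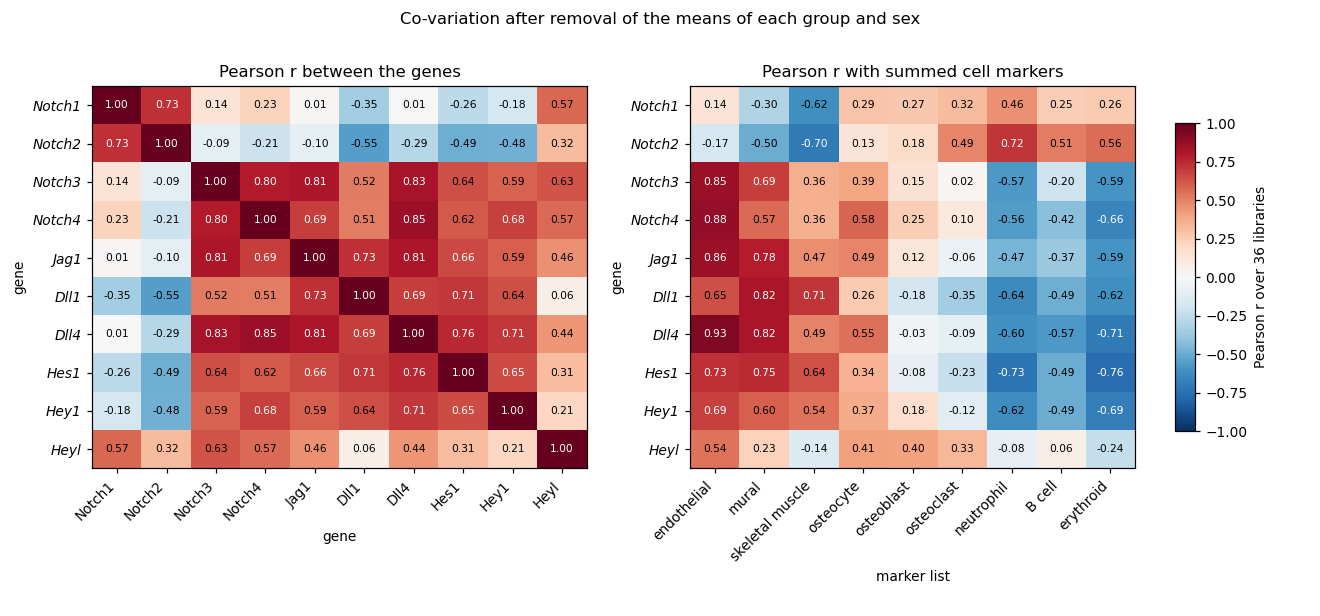
Pearson r over 36 libraries, after removal of group and sex means, between the 10 genes (left) and between each gene and the summed markers of 9 cell lists (right), with red for positive and blue for negative values. The block of *Notch3* to *Hey1* is red throughout, from 0.51 to 0.85, and *Notch2* stands outside it with values from -0.55 to -0.09.

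Out of 12606 genes whose mean reached 1 TPM, the one that varied most like *Notch4* was *Tie1*, a receptor of endothelial cells (0.93). It belongs to the endothelial list used above. *Dll4* was nearest to *Rasip1* (0.92), *Efnb2* (0.92) and *Podxl* (0.92), of which *Rasip1* is needed to form vessel lumens and *Efnb2* marks arterial endothelium. *Dll1* was nearest to *Nos3*, the nitric oxide synthase of endothelium (0.91), *Fbln2* (0.89) and *Adamts1* (0.88). *Jag1* was nearest to *Ski*, *Ephb4* and *Ptprg* (each 0.90), and *Notch3* to *Rbpms* (0.89), *Npr1* (0.89) and *Syde1* (0.89). The genes nearest to *Notch2* were of another kind, *Wipf1* (0.93), *Actn1* (0.92) and *Myh9* (0.91), which code for proteins of the actin cytoskeleton. *Notch1* was nearest to *Med15* (0.88), *Prkd2* (0.87) and *Trrap* (0.87). For the target genes the values were lower, with *Zcchc24* for *Hes1* (0.86), *Armcx3* (0.83) and *Smad7* (0.83) for *Hey1*, and *Plxnd1* (0.83) for *Heyl*.

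A further 47 genes of the Notch pathway were examined, of which 37 passed the filter. *Dll3*, *Dlk1*, *Dlk2*, *Aph1c*, *Dtx1*, *Hes2*, *Hes3*, *Hes5*, *Hes7* and *Hey2* did not. Of the 37, 7 were higher and 10 lower in saline-treated mice against wild-type, 13 were higher and 14 lower in ABE-treated mice against wild-type, and 10 were higher and 7 lower in ABE-treated against saline-treated mice. The 17, 27 and 17 called of 37 stand beside 52.4%, 70.1% and 48.0% of all genes. Their median log2 fold changes were -0.014, -0.0085 and -0.0054, close to those of all genes. On TPM as deposited 1 was higher and 8 lower, 2 were higher and 27 lower, and 1 was higher and 16 lower in the same order, and the values of single pathway genes below hold for scaled TPM.

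Among the remaining ligands *Jag2* passed the filter and rose in each comparison. Its mean was 0.765 ± 0.25 scaled TPM (SD, n = 12) in wild-type, 1.44 ± 0.393 in the saline group and 2.14 ± 0.614 in the ABE group. The log2 fold change against wild-type was 0.61 (adjusted p = 8.4e-05) and 1.06 (adjusted p = 7.3e-09), and 11 of 12 ABE-treated libraries exceeded all wild-type ones. Between the *LMNA* G/G groups it was 0.44 (adjusted p = 0.0041).

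The fringe enzymes, which add sugars to the receptors and so alter how they answer to Delta-like and Jagged ligands, did not move together. *Mfng* fell from 2.51 ± 0.321 scaled TPM in wild-type to 1.37 ± 0.188 in the saline group and 1.23 ± 0.201 in the ABE group (SD, n = 12), with log2 fold changes of -0.68 (adjusted p = 2.3e-10) and -0.80 (adjusted p = 6.6e-12). Every *LMNA* G/G library was below the lowest wild-type library. *Lfng* fell from 5.87 ± 0.643 to 4.56 ± 0.588 and 3.61 ± 0.716 (log2 fold changes -0.34, adjusted p = 6.3e-04, and -0.65, adjusted p = 2.4e-08), and was also lower in ABE-treated than in saline-treated mice (-0.31, adjusted p = 0.0027). *Rfng* was called in ABE-treated mice and was higher, at 0.12 against wild-type (adjusted p = 0.021) and 0.20 against saline-treated mice (adjusted p = 0.0015).

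Of 4 ubiquitin ligases that act on the ligands, 3 were higher and 1 lower in ABE-treated mice than in wild-type. Of all genes, 34.6% were called higher and 35.5% lower in that comparison. *Neurl1a* rose from 0.771 ± 0.300 scaled TPM in wild-type to 1.38 ± 0.760 in the saline group and 3.07 ± 1.56 in the ABE group (SD, n = 12), with log2 fold changes of 0.49 (adjusted p = 0.047) and 1.41 (adjusted p = 5.7e-07) against wild-type. *Mib1* rose by 0.37 (adjusted p = 5.7e-08) and *Mib2* by 0.24 (adjusted p = 6.5e-04) in ABE-treated mice against wild-type, and *Neurl1b* fell by 0.11 (adjusted p = 0.019). In the group of 10 genes for receptor folding, glycosylation and ligand uptake as a whole, 5 were higher and 5 lower in that comparison.

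Of 8 tested genes of the ADAM proteases and gamma-secretase, 2 were higher and 2 lower in saline-treated mice than in wild-type (all genes 27.5% and 24.9%). In ABE-treated mice 2 were higher and 5 lower than in wild-type (all genes 34.6% and 35.5%). In the ABE group 0 were higher and 4 lower than in the saline group (all genes 22.9% and 25.1%). *Adam10*, which makes the first cut, had 11.1 ± 1.31 scaled TPM in the saline group and 8.45 ± 1.72 in the ABE group (SD, n = 12, log2 fold change -0.39, adjusted p = 0.0018). *Psenen*, a subunit of gamma-secretase, was higher than in wild-type in saline-treated mice (0.29, adjusted p = 8.3e-04) and in ABE-treated mice (0.42, adjusted p = 4.0e-06). *Aph1b* and *Aph1c* are near copies of each other, so the value of *Aph1b* is uncertain.

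Most nuclear partners of the receptors were not called. *Rbpj* was called in no comparison, with log2 fold changes of -0.023, 0.050 and 0.073. Of the 8 genes of this group 6, 5 and 5 were not called. In the same order 52.4%, 70.1% and 48.0% of all genes were called. *Dtx3*, a Deltex family ubiquitin ligase, was higher in ABE-treated than in saline-treated mice (0.42, adjusted p = 6.9e-04). Against wild-type it was lower in saline-treated mice (-0.29, adjusted p = 0.0050) and was not called in ABE-treated mice (0.13, adjusted p = 0.16). *Hes6*, the only further HES or HEY gene tested, fell in both *LMNA* G/G groups against wild-type (-0.34, adjusted p = 5.5e-04, and -0.46, adjusted p = 4.4e-06), the opposite direction to *Hes1*. *Nrarp*, a target gene that limits Notch signalling, was called in ABE-treated mice against wild-type (0.24, adjusted p = 0.0057) and was 0.14 in saline-treated mice (adjusted p = 0.12). *Rfng*, *Mib1*, *Mib2*, *Neurl1b*, *Rbpj* and *Nrarp* were named after their values had been seen.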

How the data were processed

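The authors aligned poly(A), strand-specific paired reads to GRCm38 with STAR (2.73a per the labels), quantified GENCODE genes by QoRTs and deposited their TPM, together with each gene's GC content, a fraction given by the authors. From the deposited TPM, reads were recovered as TPM times gene length less 218 bp over a constant per library. They were whole for 100% of the values above 0 that were checked (tolerance 0.01). The check left out the highest read counts, among them most of those of *Notch2*. Libraries held a median of 78234452.5 reads on genes, and no member had fewer than 252 in any library.

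TPM were divided by each library's median ratio to geometric means over the 23632 genes above 0 in all libraries. Those 16123 genes whose mean reached 0.5 TPM were tested with limma 3.58.1 (R 4.3.3) on log2(scaled TPM + 0.5), in 1 fit of 36 libraries with sex as a covariate. A gene was called at an adjusted p under 0.05 (Benjamini-Hochberg, over all of them). Sex differences were tested as an interaction. The fit was tested on simulated data with known changes. Mice are separate animals and 0 pairs of libraries were identical.

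Members, gene lists and tests were chosen with earlier results of these data known, and the motifs after promoters had been read. Named genes were the 10 members, up to 6 called genes per comparison of the pathway list with the largest change and a mean of at least 1 scaled TPM, and the 3 genes most like each member. A pathway gene that this rule names is not reported here. Alternatives were TPM as deposited, pseudocounts of 0.1 and 1, no filter or one at 1 TPM, quantile normalization, limma-voom on recovered reads with and without a filter built from the study's description, array weights, no sex covariate, the compared groups only, either sex alone, marker sums as covariates, correction for GC content and gene length, and each library left out. The mural sum as a covariate was added after the data were seen. Python 3.11.15, pandas 2.3.3 and matplotlib 3.10.9 were used. Protein sequences, transgene reads and editor reads were not used here.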

Additional observations from a re-analysis of the deposited data

Results flagged for a closer look

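*Heyl* was singled out because its change in ABE-treated mice against wild-type differed between the sexes by limma's interaction test, by 0.58 on the log2(scaled TPM + 0.5) scale (male minus female, SE 0.15, adjusted p = 0.031). The change was -0.24 in females and 0.34 in males. In wild-type mice the means were 1.17 ± 0.177 scaled TPM in females and 0.692 ± 0.233 in males (SD, n = 6 each), and in saline-treated mice 0.911 ± 0.155 and 0.670 ± 0.106. The interaction was called for 588 of 16123 genes, and 1 of the 10 Notch genes was among them. The male 617M had the lowest wild-type value, 0.403. What underlies the difference was not tested.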

How the results depend on the processing

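Counts are for saline-treated against wild-type, ABE-treated against wild-type and ABE-treated against saline-treated mice, and the cause was not tested. As reported, 5, 9 and 6 of the 10 genes, 8447, 11298 and 7738 of all genes, and 17, 27 and 17 of the further pathway genes were called. TPM as deposited gave 2, 3 and 2 of the 10 genes, 4742 genes and 9 pathway genes in the first comparison. With no filter, 13170 and 19138 genes were called in the first and second, since more genes were tested. Limma-voom with a filter built from the study's description tested 6783 genes, 5 of the 10 among them. It called 3, 5 and 4 of those 5, 3996, 5385 and 4132 of all genes, and 10 and 17 pathway genes. The paper reports more altered genes in the first comparison than this filter left for testing, so the study's own filter kept more genes. Females alone gave 1 and 3 of the 10 genes in the first and the third comparison, with 3344 and 4744 genes and 10 pathway genes in each, and males alone gave 3238 genes in the third. With the endothelial sum as a covariate, the third comparison fell to 2 of the 10 genes and 3652 genes. With the muscle sum, 1, 2 and 2 of the 10 genes were called, and in the second and the third comparison 5759 and 1952 genes and 15 and 9 pathway genes. With the mural sum, 4 and 1 of the 10 genes were called in the second and the third, and 514 genes and 1 pathway gene in the third. The count of the 10 genes called in the sex difference for ABE-treated against wild-type mice rose from 1 to 2 on TPM as deposited and without F109436. Leaving out each library in turn gave 4 to 6, 9 to 9, and 4 to 7 of the 10 genes.

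Signs turned mostly for small changes. On TPM as deposited they turned for *Notch3* (-0.17) and *Dll4* (-0.094) in saline-treated mice, for *Notch3* (-0.22) and *Heyl* (-0.28) in ABE-treated mice against wild-type, and for *Notch3* (-0.045), *Jag1* (-0.016), *Hes1* (-0.16) and *Heyl* (-0.033) against saline-treated mice. *Notch3* in saline-treated mice was also negative with quantile normalization (-0.041), limma-voom (-0.0027), limma-voom with the filter built from the study's description (-0.0044) and in females alone (-0.24). Females alone also gave -0.077 for *Dll4* in saline-treated mice and -0.24 for *Heyl* in ABE-treated mice against wild-type, and males alone gave 0.11 for *Notch1* against saline-treated mice. With the endothelial sum, *Notch3* (-0.11) and *Dll4* (-0.081) turned in saline-treated mice, *Notch3* (-0.059) and *Heyl* (-0.14) in ABE-treated mice against wild-type, and *Hes1* (-0.037) against saline-treated mice. With the muscle sum, *Notch3* (-0.14) and *Dll4* (-0.11) turned in saline-treated mice, and *Notch1* (0.053) and *Hes1* (-0.028) in ABE-treated against saline-treated mice. With the mural sum, *Notch3* (-0.13) and *Dll4* (-0.097) turned in saline-treated mice, *Notch3* (-0.11) and *Heyl* (-0.099) in ABE-treated mice against wild-type, and *Notch1* (0.014), *Dll1* (-0.0050) and *Hes1* (-0.10) against saline-treated mice. No paired analysis was possible because the labels give the groups no shared replicate numbers.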

Other observations

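For the following genes the interaction with sex did not pass the correction over all genes, and the values in each sex are given as a description. In saline-treated against wild-type mice, *Notch1* changed by -0.089 in females and -0.39 in males on the log2(scaled TPM + 0.5) scale (limma interaction, difference -0.31, adjusted p = 0.11). In the same comparison *Jag1* changed by 0.061 in females and 0.50 in males (difference 0.44, adjusted p = 0.13), and *Notch3* by -0.24 and 0.26 (difference 0.51, adjusted p = 0.15). Between the ABE group and wild-type *Dll4* changed by 0.31 in females and 0.76 in males (difference 0.44, adjusted p = 0.18). *Hes1* was close in the sexes in saline-treated mice, at 0.49 in females and 0.65 in males.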
